A study of Mus musculus with 2 samples.

Results

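The genes of prostaglandin synthesis and reception were compared between 1 wild-type and 1 Wisp1 knockout culture of adipose-derived stromal cells, the fibroblast-like progenitors that grow out of fat tissue. The set was a list of 10 genes, among 30139 named genes on the array, and it was chosen by a measured value, the over 2-fold difference of Ptgs2 between the arrays. A value was read for 9 of the 10 genes, each from the only transcript cluster (the array's unit for a gene or transcript) that the platform annotation gives for it. Ptgs1 was not analysed here because the annotation used named no cluster for it. Because the difference of Ptgs2 chose the set, that difference is a description and was not tested. The mice, aged 6 to 10 weeks, had a C57BL/6J background, and inguinal fat gave both cultures, which were grown in DMEM with 15% fetal bovine serum, and total RNA was measured on 1 array per genotype. The knockout was global: per the labels, exons 1 to 5 of Wisp1, on chromosome 15, were floxed and the mice were crossed to a line named Cre-neo, whose promoter the labels do not give. The labels also do not say how many mice each culture came from, or its passage. With 1 array per genotype there was no replicate spread to set a difference against and no p-value was computed, so every difference compares these 2 arrays and not the genotypes.

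Prostaglandins are short-lived lipid signals made on demand from arachidonic acid. Phospholipases free the fatty acid from membranes, the cyclooxygenases Ptgs1 (constitutive) and Ptgs2 (inducible) convert it to prostaglandin H2, and terminal synthases turn that intermediate into prostaglandin E2, prostacyclin, prostaglandin D2 and others, which act on G protein-coupled receptors. In adipose stromal cells and other mesenchymal progenitors prostaglandin E2 is known as a mediator of inflammation, bone formation and the restraint of fat differentiation.

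The 2 arrays had like ranges of values over 65956 transcript clusters, with medians of 3.93 and 3.92 on the log2 scale. The targeted gene Wisp1, now named Ccn4, read 7.79 in the wild-type array and 5.40 with the knockout (-2.39, that is 5.25-fold lower). The direction goes with the labels. The knockout value still lay above the median of all named genes, 4.65, and the source of that remaining signal was not tested. Genes were called bright where their mean over both arrays reached the median of all named genes, 4.65, and dim otherwise. Past 2-fold were 15 of the 15070 bright genes on the lower side (0.0995%) and 10 on the higher side (0.0664%), and 95% of the differences lay between -0.33 and 0.37. Stromal markers were present: of 10 measured, 9 were bright, with Vim at 12.01 and 11.93 and Col1a2 at 10.57 and 11.10. Of the 10, 7 were higher in the knockout array, 2 lower and 1 the same, where 56.9% of bright genes were higher. Their median was 0.08 and their summed linear values were 11501 and 13311. Col1a2 had the highest difference (0.52) and Dlk1 the lowest (7.03 to 6.45, -0.58), and Dpp4 was dim, at 2.79 in both cultures.

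Ptgs2, the inducible cyclooxygenase and the enzyme that commits arachidonic acid to prostaglandins, had a value of 10.53 in wild-type cells and 9.43 in knockout cells. The knockout value was lower by 1.10 on the log2 scale, or 2.14-fold. This was the only 1 of the 9 measured members past 2-fold in either direction, where 0.166% of bright genes and 0.0896% of all named genes were, and since Ptgs2 chose the set nothing is read from that count. Of the bright genes 13, Ptgs2 included, had a difference at or below that of Ptgs2. At the edge of the 2-fold rule, Gm7040 lay just inside (-1.03) and Tnfsf15 just outside (-0.93). In RNA from a whole culture, fewer cells that express a gene and less of its RNA per cell cannot be told apart.

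**Figure D1:**
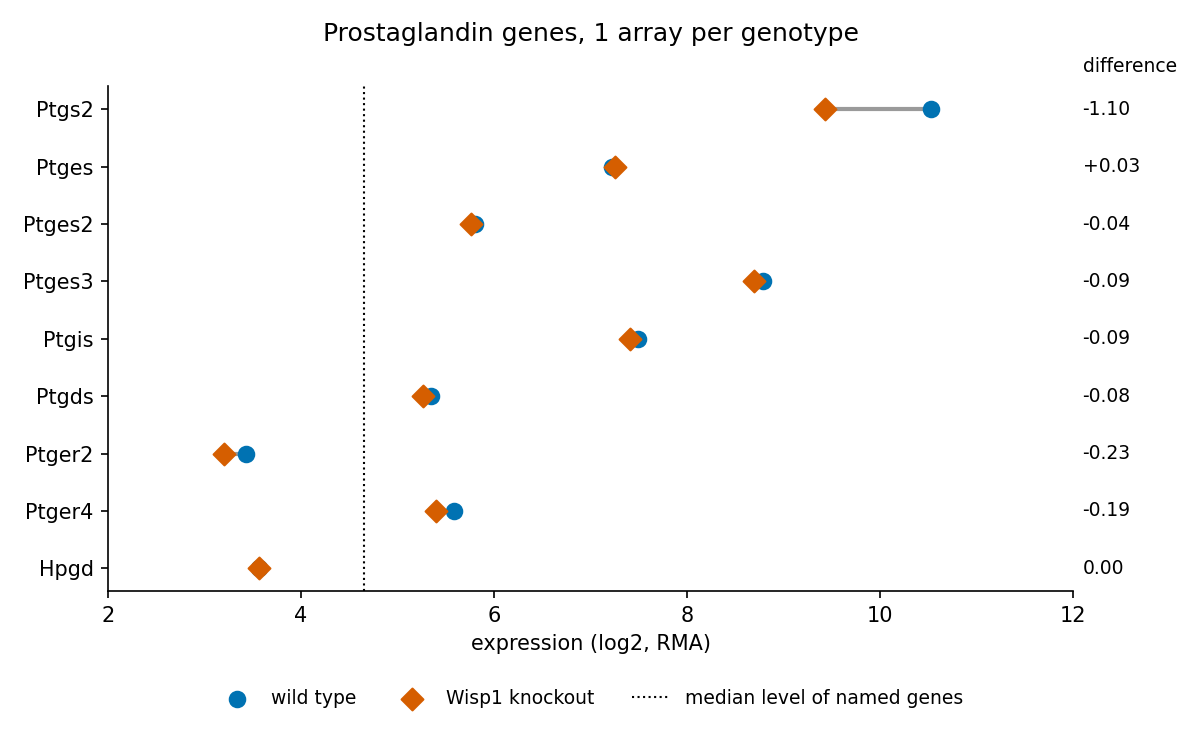
Expression (log2, RMA values) of the 9 measured prostaglandin genes, with 1 array per genotype and no error bars. Circles are wild type, diamonds Wisp1 knockout, the right column gives knockout minus wild type, and the dotted line is the median level of named genes (4.65). Ptgs2 is the only member whose symbols stand clearly apart (-1.10), Ptger2 and Ptger4 come next (-0.23 and -0.19), and the symbols of Hpgd coincide.

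Another transcript starts close to Ptgs2. RefSeq places the antisense RNA gene Ptgs2os head to head with Ptgs2, with 157 bases between the annotated starts, so that their promoter windows (250 bases before the start to 50 after it) share 256 of 300 bases. A further long noncoding RNA gene, Ptgs2os2, known as lincRNA-Cox2, lies on the other side of Ptgs2 on the opposite strand, with 1 RefSeq gene in between. The windows of Ptgs2 and Ptgs2os2, whose transcripts were both over 2-fold lower in the knockout array, and of Ptges, whose product works beside that of Ptgs2 and which differed by 0.03, are shown for comparison, from RefSeq on GRCm38.p6. They run 5′ to 3′ on each gene's own strand, and capitals mark every match to the motifs named in the next paragraph. The Ptgs2 window is chr1:150099781-150100080 on the plus strand, the Ptgs2os2 window chr1:150164899-150165198 on the minus strand, and the Ptges window chr2:30903248-30903547 on the minus strand.
Ptgs2: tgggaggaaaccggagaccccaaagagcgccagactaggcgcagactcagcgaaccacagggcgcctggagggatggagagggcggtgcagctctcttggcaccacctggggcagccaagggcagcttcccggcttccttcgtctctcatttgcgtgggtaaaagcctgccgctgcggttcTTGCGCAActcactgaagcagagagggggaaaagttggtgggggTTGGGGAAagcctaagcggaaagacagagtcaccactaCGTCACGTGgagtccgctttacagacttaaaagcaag
Ptgs2os2: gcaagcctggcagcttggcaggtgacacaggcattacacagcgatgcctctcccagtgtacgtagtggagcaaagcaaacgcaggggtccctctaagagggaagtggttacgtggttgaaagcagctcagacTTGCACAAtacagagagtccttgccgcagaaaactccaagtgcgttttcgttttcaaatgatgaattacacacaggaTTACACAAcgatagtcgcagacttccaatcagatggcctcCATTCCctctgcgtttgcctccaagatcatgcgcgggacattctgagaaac
Ptges: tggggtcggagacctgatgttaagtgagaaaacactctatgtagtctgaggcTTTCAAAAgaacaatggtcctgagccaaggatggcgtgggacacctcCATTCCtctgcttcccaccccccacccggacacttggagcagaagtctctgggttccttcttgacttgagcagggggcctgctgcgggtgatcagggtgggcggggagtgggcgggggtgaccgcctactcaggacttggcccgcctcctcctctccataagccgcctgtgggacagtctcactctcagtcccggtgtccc

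A search for 10 motifs on both strands gave 4 kinds of match in the Ptgs2 window. The C/EBP palindrome TTGCGCAA lay 69 to 62 bases before the start and was found in 0.183% of all 32851 windows of this length. Bases 13 to 17 after the start, counted from 0 at its first base, were the cyclic AMP response element core CGTCA (20.8% of windows). It overlapped the E-box CACGTG at bases 16 to 21 (7.15% of windows). The loose C/EBP form TTNNGNAA, found in 40.7% of windows, matched inside the palindrome and once more, 25 to 18 bases before the start. In the Ptgs2os2 window the TEAD motif GGAATG (14.7% of windows) matched at the start itself, on the opposite strand, and the loose C/EBP form matched at 2 places. The Ptges window held 1 TEAD match and 1 loose C/EBP match. The letters of TATAAA (13.6% of windows), TGAGTCA for AP-1 (5.2%) and the full response element TGACGTCA (1.79%), and those of both NF-kappaB sites searched (0.155% and 0.107%), were in none of these 3 windows. Sites outside the windows, or spelled otherwise, were not looked for. Windows were found for 9 of the 10 members, Ptgis being the other, and among these TTGCGCAA occurred in that of Ptgs2 alone. The other motifs of the Ptgs2 window were also in members that differed little. CGTCA was in the window of Ptges3 (-0.09) and CACGTG in that of Ptges2 (-0.04). TTNNGNAA was in 6 of the 9, Ptgs2 and Hpgd among them. Whether a motif goes with a difference was not tested. The overlapping window of Ptgs2os, which is not a member, held the same TTGCGCAA, CGTCA and CACGTG. A match is only a run of letters, and binding was not measured. Positions count from the RefSeq start, and where transcription begins in these cells was not measured, so a match after that start need not be transcribed.

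The nearest measured genes on either side of Ptgs2 were lower as well, to differing degrees. Ptgs2os2 went from 6.24 in wild type to 5.01 with the knockout, which is -1.23 or 2.34-fold lower. The platform gives 2 symbols for its cluster, and RefSeq lists both as names of this 1 gene. Ptgs2os was dim, at 4.36 and 4.01 (-0.35). Pla2g4a, the cytosolic phospholipase A2 that supplies Ptgs2 with arachidonic acid and its nearest measured protein-coding neighbour on that side, went from 8.49 to 8.10 (-0.39). Farther out, Pdc (2.85 to 2.69) and Prg4, the lubricin gene (7.56 to 7.39), differed by -0.17 and -0.16, the first of them dim. The small RNA genes Gm23535 (-0.05) and Gm22966 (0.08) and the noncoding 2310030A07Rik (-0.06) were dim and differed by less than 0.1. These neighbours, the 4 measured named genes on each side, were chosen after the values were seen.

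**Figure D2:**
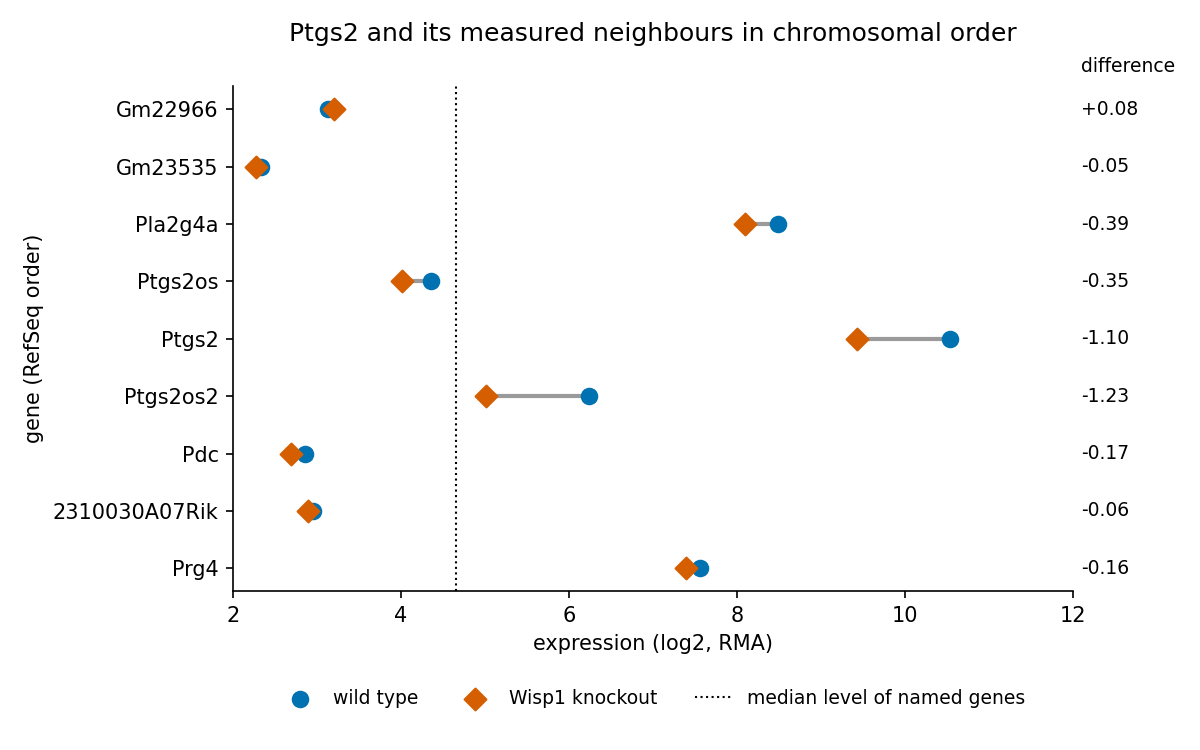
Expression (log2, RMA values) of Ptgs2 and the 4 measured named genes on each side of it, in RefSeq order from top to bottom and not to scale, with 1 array per genotype. Circles are wild type, diamonds Wisp1 knockout, and the dotted line is the median level of named genes. The widest gaps are those of Ptgs2os2 (-1.23) and Ptgs2 (-1.10), then Pla2g4a (-0.39) and Ptgs2os (-0.35).

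The prostaglandin E synthases, which act directly after the cyclooxygenases, differed little. Ptges, the microsomal enzyme that is usually induced together with Ptgs2, read 7.22 and 7.25 (wild type first, as in the pairs of values that follow). Its difference of 0.03 changed sign under quantile normalization (-0.03) and under loess centring on mean expression (-0.0055). Ptges2, a membrane-associated form, was at 5.80 and 5.76 (-0.04). Ptges3, also known as the HSP90 cochaperone p23, was at 8.78 and 8.69 (-0.09), and its cluster also lists the ID of the pseudogene Ptges3-ps, so the value may not be of Ptges3 alone. For Ptges, 80.0% of the 15070 bright genes had a difference at least as large in size, for Ptges2 77.0% and for Ptges3 50.9%.

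The other terminal enzymes of the set were also close to each other on both arrays. Ptgis, the prostacyclin synthase, was at 7.50 and 7.41 (-0.09). Ptgds, the lipocalin-type prostaglandin D synthase, was at 5.34 and 5.27 (-0.08). Hpgd, the dehydrogenase that inactivates prostaglandins, was dim and read 3.56 in both cultures, identical to the last deposited digit, as did 4.45% of all transcript clusters.

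Both prostaglandin E2 receptors of the set, which raise cyclic AMP through Gs, were slightly lower in the knockout array. Ptger4, which encodes EP4, was at 5.58 and 5.39 (-0.19), and 21.5% of bright genes had a difference at least as large in size. Ptger2, which encodes EP2, was dim, at 3.43 and 3.20 (-0.23). Both differences lie within the central 95% of bright genes given above.

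Over all 9 members with a value, 7 were lower in the knockout array, 1 was higher and 1 was the same. Of all 30139 named genes 47.4% were lower and 47.0% higher, and of bright genes 39.9% and 56.9%. The median difference of the members was -0.09, and -0.08 over the 8 members other than Ptgs2, against 0 over all named genes and 0.03 over bright genes. Bright were 7 of the 9. Leaving out Ptgs2, every member's difference lay between -0.23 and 0.03, smaller in size than a 1.2-fold difference, which 10.7% of bright genes reached.

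**Figure D3:**
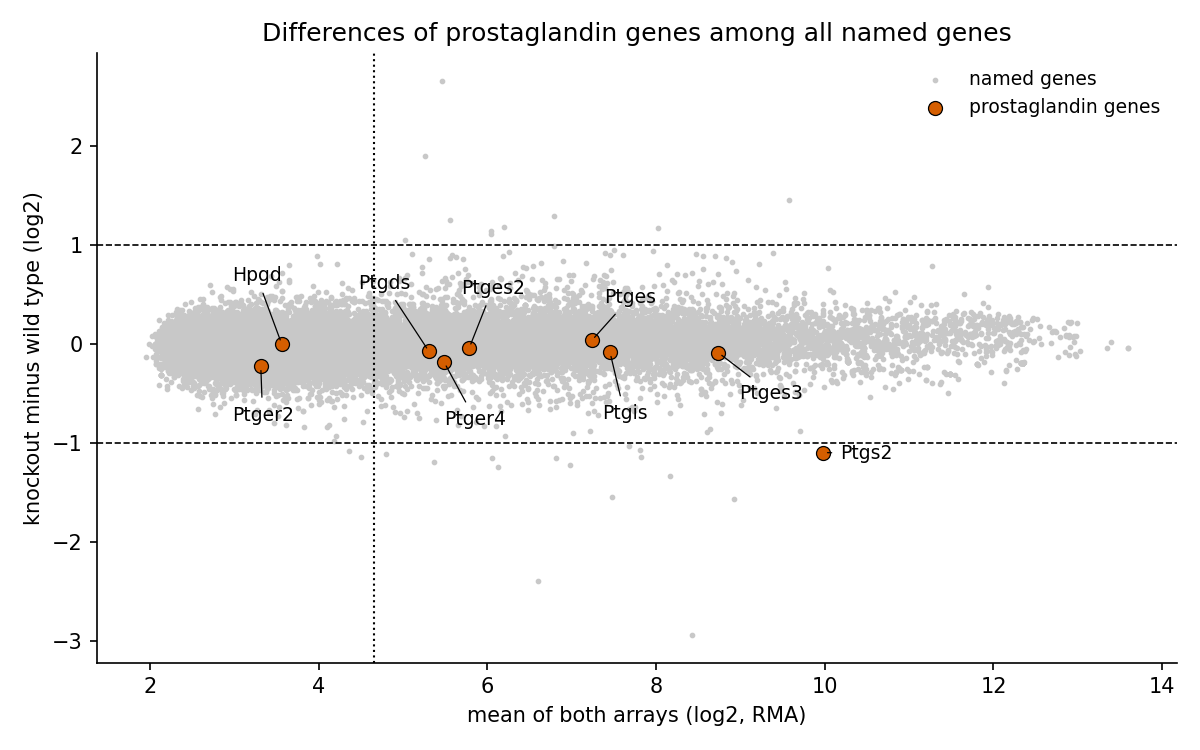
Difference between the arrays (knockout minus wild type, log2) against the mean of both arrays (log2, RMA values) for 30139 named genes in grey and the 9 measured prostaglandin genes in colour. Dashed lines mark 2-fold and the dotted line the median level of named genes. Ptgs2 lies below the lower 2-fold line and the other members lie inside the band of most genes.

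Genes that surround the set in the pathway were read from 9 lists of related genes, 93 of whose 102 entries had a value. At least 2-fold lower was 1 of them, Ereg, and 0 were at least 2-fold higher, where 0.0564% and 0.0332% of all named genes were. By sign, 47 were lower, 42 higher and 4 the same.

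The prostaglandin transporters held the lowest list median. All 4 measured members were lower, with a median of -0.31, where 47.4% of all named genes and 39.9% of bright genes were lower. Slco2a1, the carrier that takes prostaglandins back into the cell for breakdown, was at 8.59 and 7.98 (-0.62). Slco3a1, an organic anion transporter that also carries prostaglandins, was at 7.55 and 7.00 (-0.55). The exporter gene Abcc4 (6.06 to 6.01) and the dim Slco2b1 (4.44 to 4.38) differed by -0.04 and -0.06.

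Genes of arachidonic acid release and reacylation went both ways, with 7 of 13 lower, 5 higher, 1 the same and a median of -0.02. After Pla2g4a, given above, the monoacylglycerol lipase gene Mgll was the next lower (5.90 to 5.58, -0.32). Plaat3, a phospholipase abundant in adipocytes, was the highest, at 5.75 and 6.37 (0.62). None was past 2-fold.

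The list of other prostanoid receptors had both signs, with a median of 0.06 and 5 of 8 genes higher and 3 lower. One of the higher genes, Ptgfrn (7.81 to 7.98, 0.17), encodes a regulatory partner of the prostaglandin F receptor rather than a receptor. Ptgfr, the prostaglandin F receptor, was at 5.41 and 5.69 (0.28). Ptgdr2, a prostaglandin D2 receptor, was dim (3.86 to 4.06, 0.20). A further prostaglandin E2 receptor gene, Ptger3, which lowers cyclic AMP, was dim as well and lower (4.50 to 4.30, -0.20), while Ptger1 (6.16 to 6.23, 0.07) and the prostacyclin receptor gene Ptgir (5.93 to 5.99, 0.06) differed little.

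Other terminal synthases and reductases were evenly split, with 4 of 9 lower, 4 higher, 1 the same and a median of 0. Cbr3, a carbonyl reductase, was the lowest (6.40 to 6.08, -0.32), followed by the dim Akr1c18 (3.97 to 3.75, -0.22). Lipoxygenase and leukotriene genes, the competing use of arachidonic acid, had 6 of 13 lower, 5 higher, 2 the same and a median of 0. Of these 13 genes 4 were bright. Alox5ap, the partner protein of 5-lipoxygenase, was the highest (4.50 to 4.83, 0.33), and Ltb4r1, a leukotriene B4 receptor gene, was dim (3.32 to 3.51, 0.20).

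Among 19 measured genes known to induce or regulate Ptgs2, the median was -0.02, with 10 lower and 9 higher. Egr1, an immediate early transcription factor, was the highest (7.06 to 7.68, 0.63), and Anxa1, a glucocorticoid-induced protein that restrains phospholipase A2, the lowest (9.89 to 9.40, -0.49). The cytokine genes Il1a (2.77 to 2.69), Il1b (3.10 to 2.90) and Tnf (3.78 to 3.75) were dim on both arrays, while the interleukin-1 receptor gene Il1r1 was at 9.90 and 10.22 (0.32). Cebpb, whose product binds C/EBP sites such as the palindrome in the Ptgs2 window, was at 8.24 and 8.25 (0.01), and Cebpd at 6.66 and 6.83 (0.17).

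The messenger RNA of Ptgs2 is known to be short-lived and bound by proteins that recognise AU-rich stretches. Of 9 genes for such proteins, all bright, 8 were higher in the knockout array and 1 lower, with a median of 0.09 and none past 2-fold. All bright genes, for comparison, had a median of 0.03, with 56.9% higher and 39.9% lower. Zfp36l1, which promotes decay of such messages, was at 9.26 and 9.81 (0.55), and its relative Zfp36l2 at 9.48 and 9.73 (0.26). Zfp36 (0.07) and Elavl1 (0.09), which stabilises such messages, differed by less than 0.1, and Celf2 was the lower one (-0.11).

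Genes that respond to cyclic AMP, the signal of EP2 and EP4, were mixed, with 7 of 12 lower, 5 higher and a median of -0.02. Ereg, which encodes the growth factor epiregulin, was at 6.74 and 5.50 (-1.24), the one gene of the 9 lists past 2-fold. A second, dimmer Ereg cluster went from 4.29 to 3.99 (-0.29), and the mean of both was -0.77, short of 2-fold. The orphan receptor genes Nr4a3 (6.13 to 5.60, -0.54), Nr4a2 (7.40 to 7.02, -0.38) and Nr4a1 (8.80 to 8.60, -0.20) were lower, whereas Per1 and Vegfa were each 0.30 higher. Of the HSP90 partners of Ptges3, all bright, 5 of 6 were lower, where 39.9% of bright genes were. Their median was -0.06, with values from Hsp90aa1 at -0.08 and Fkbp5 at -0.08 up to Stip1 at 0.03.

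**Figure D4:**
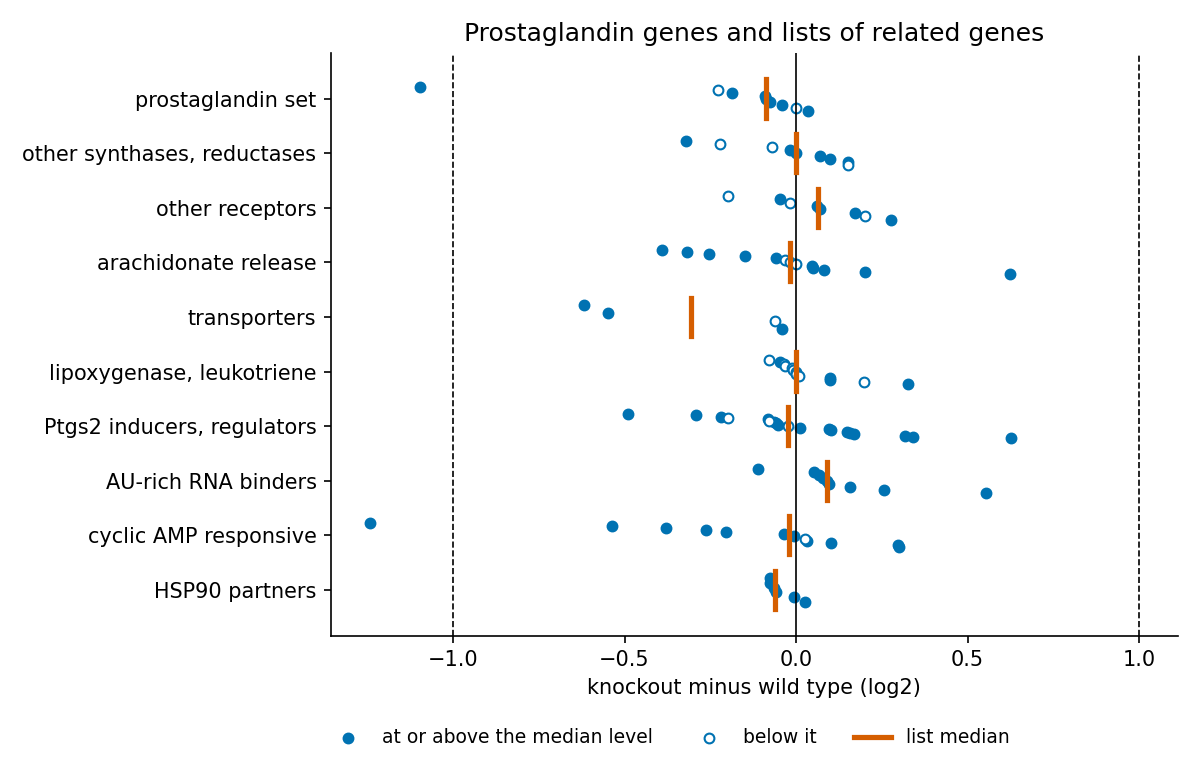
Differences between the arrays (knockout minus wild type, log2) of the prostaglandin set and of 9 lists of related genes, one point per gene. Filled points are bright genes and open points dim ones, bars are list medians, and dashed lines mark 2-fold. The points past 2-fold are Ptgs2 and Ereg (-1.10 and -1.24), and the lowest list median is that of the transporters (-0.31).

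Genes with a pattern like that of Ptgs2 were ranked by the Euclidean distance of their values on the 2 arrays, among bright genes. The nearest of the 5 listed was Grem1, which encodes a secreted BMP antagonist, at 10.15 and 9.27 (distance 0.42). The next were the 5S ribosomal RNA gene n-R5s25 (10.03 and 9.63), F2r, the thrombin receptor gene (10.26 and 9.90), Hmox1, the haem oxygenase gene (10.34 and 9.95), and Mgp, an inhibitor of calcification (10.32 and 9.94), at distances from 0.54 to 0.55. Those 4 differed by -0.36 to -0.40, less than Ptgs2, and likeness over 2 arrays is likeness of level and difference only.

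Markers of other cell types differed in part between the arrays as well, and their part in the prostaglandin values was not tested. For the counts that follow, 47.4% of all named genes were lower and 47.0% higher. Of 9 macrophage markers 6 were higher in the knockout array, 2 lower and 1 the same, and Csf1r, among the higher, differed by 0.01. Their summed linear value was 266 in wild-type and 432 in knockout cells, and Lyz2 made up most of the rise. Lyz2 (6.14 to 7.43, 1.29) and Fcer1g (5.13 to 6.02, 0.90) led them and Cd14 was lowest (4.90 to 4.72, -0.18), while Adgre1, Csf1r, Mrc1 and Ptprc were dim. The pericyte and smooth muscle list had both signs, with 5 of its 7 markers lower and -0.16 as the median. Mcam was lowest (8.51 to 7.82, -0.69), then Myh11 (8.27 to 7.76, -0.51). Abcc9 (4.34 to 4.56, 0.22, the highest) and Rgs5 (4.15 to 4.23, 0.08) were higher. Both were dim, as was the lower Kcnj8 (3.85 to 3.69, -0.16). The summed value of the 7 markers was 8082 against 7189, most of it Acta2 (12.83 to 12.70, -0.13). Without Acta2, a setting chosen after seeing the data, it was 790.3 against 548, a fall mostly of Mcam and Myh11. Of 6 mesothelial markers Upk1b was lower (5.35 to 4.25, -1.11), whereas Msln, Upk3b, Lrrn4 and Wt1 were dim and differed by less than 0.1. Krt19, the brightest of the 6, was at 6.02 and 6.03 (0.02). The summed values were 166 and 145, a fall mostly of Upk1b. Of 5 mature adipocyte markers 3 were lower and 2 higher, and only 1 was bright, Plin1 (4.83 to 4.87, 0.04). Among the dim ones Retn (4.90 to 3.81, -1.08) was lowest, then Adipoq (4.50 to 3.86, -0.64), and Lep (3.68 to 3.73, 0.05) was highest. The summed values of the 5 were 114 and 89.3. Endothelial markers (4 of 6 higher, Cdh5 from 3.81 to 4.62, Tek from 5.61 to 5.47, sums of 115 and 129), epithelial markers (5 of 6 lower, Krt18 from 4.58 to 4.22, Krt8 from 4.89 to 4.93, sums of 131 and 123) and mast cell markers (3 of 5 higher, Mcpt4 from 3.14 to 3.21, Cpa3 from 2.72 to 2.67, sums of 61.7 and 62.3) were mostly dim. The endothelial marker Emcn, also dim, was higher by about as much as Cdh5 (3.24 to 4.04, 0.80).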

How the data were processed

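Total RNA of 1 wild-type and 1 Wisp1 knockout stromal cell culture was labelled with the Affymetrix GeneChip WT PLUS kit, per the labels' protocols. The values deposited by the authors are log2 expression per transcript cluster from RMA in Partek, per the submitters' processing notes. Versions, the arrays normalized together and the build of the array design are not given in the sources used here, and the values themselves show the log2 scale. RMA equalises the distributions of arrays and compresses differences of dim genes. The number of arrays limits the precision.

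Clusters were named through the platform annotation, which can be old: 30604 had 1 symbol, 2146 several and 33206 none. Symbols were updated through Entrez IDs and RefSeq (GRCm38.p6), which held 22951 of the clusters with 1 symbol, and 837 were renamed. For 358 genes with several clusters the one with the highest mean was kept. Differences are knockout minus wild type, with no further normalization and no test, and a gene was counted when past 2-fold. Promoter windows are from RefSeq, and gene order was taken from RefSeq start positions.

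The members and lists were chosen with earlier results of these data known. Named genes were Wisp1, the members, in each pathway list the 2 largest differences and any past 2-fold, the highest and lowest of each marker list, and the 5 genes nearest to Ptgs2, leaving out predicted genes. Other genes named in the text, such as Ptgs2os2, Mgll, Fcer1g and Il1b, were chosen after their values were seen. Alternatives were median centring, quantile normalization, loess centring (span 0.3), the mean over clusters, clusters with several symbols kept, other folds, other level filters and the mean of members. The procedure was tested on simulated data: all 200 planted differences among 30139 genes were recovered under each of the normalizations. The planted differences were past 2-fold, larger than that of Ptgs2, free of noise and placed in bright genes. Their recovery therefore checks the computation only, and says nothing of how sure a difference between these 2 arrays is. Computations ran in Python 3.11.15 (matplotlib 3.10.9, statsmodels 0.14.6, pandas 2.3.3, numpy 2.4.6).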

Additional observations from a re-analysis of the deposited data

How the results depend on the processing

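The difference of Ptgs2 ranged from -1.12 to -1.08 over median centring, quantile normalization, loess centring, the mean over clusters and clusters with several symbols kept, and stayed past 2-fold under each, and that of Ptgs2os2 from -1.25 to -1.21. Ptgs2 has 1 cluster, so the mean over clusters could not change its value, and keeping clusters with several symbols left it the same. The median of the 9 members was -0.07 to -0.12 under those settings, -0.09 over the bright members, and -0.20 as a mean of members, to which Ptgs2 alone contributes most. Of 275 values of 55 named genes under the 5 settings, 274 moved by less than 0.1. That count includes the mean over clusters, which cannot move a gene with 1 cluster. The exception was Ereg (-0.77 as the mean of its 2 clusters). Among these genes Ptges alone changed sign, as given above, and Hpgd moved from 0 to at most 0.03. Apart from Ptgs2, other genes named in the text, such as Cebpb and Stip1, were not rerun, nor were the counts of lower and higher genes. Small differences among them may change sign. The counts of bright genes past 2-fold, 15 lower and 10 higher, were 17 and 10 over all named genes and by the brighter array, 14 to 19 and 10 to 11 under the 5 settings, and became 70 and 108 at 1.5-fold and 644 and 964 at 1.2-fold, because a smaller fold admits more genes. The count of members past the threshold was 1 at each. With rows added whose symbols RefSeq lists as names of 1 gene, an alternative that was chosen after seeing the data, 16 genes were lower and 10 higher. Leaving out an array was not possible with 1 per genotype. No paired analysis was possible because each genotype has 1 array. Dim genes such as Ptger2 and Hpgd lie where RMA compresses differences, so their values limit what can be read from them.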
